A study of Mus musculus with 6 samples.

Results

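The 10 genes described here are identity genes of the oviduct epithelium: Epcam, Cdh1, Krt8, Krt18, Krt19, Cldn3, Cldn4, Esrp1, Foxj1 and Ovgp1. They were chosen by name, as a check of cell composition in libraries labelled as muscle cells, among 21755 protein-coding genes. Earlier results of these data were known when the genes were chosen. Their windows, the gene bodies plus 10 kb on each side on the GRCm38 assembly, held 14 of the 66679 accessible regions obtained by merging the 2 lists of reproducible peaks. The libraries were ATAC-seq libraries of primary oviductal muscle cells from mice on day 2 of pregnancy, aged 8 to 12 weeks. ATAC-seq marks open chromatin by where the Tn5 transposase can insert sequencing adapters. The series compared 3 libraries labelled WT with 3 labelled Pbrm1 cKO to find differences in accessibility. Pbrm1 encodes a subunit of the chromatin remodeling complex SWI/SNF.

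In the study's text, the control animals were Pbrm1 fl/fl littermates, whose floxed alleles are intact, and the Pbrm1 cKO animals carried the same alleles with Cre recombinase expressed from the progesterone receptor gene. Cre then acts in cells that express this receptor. Per the labels, the oviducts were digested with enzymes, filtered and plated, and the cells left on the dish after washing were used. The labels give no marker or sort for muscle cells. The signal is that of a whole culture, and fewer cells of a type cannot be told apart from less open chromatin per cell.

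The oviduct is lined by a single layer of ciliated and secretory epithelial cells over a coat of smooth muscle. Epithelial cells adhere to each other through E-cadherin and EPCAM, seal their contacts with claudins and carry a cytoskeleton of simple keratins. The splicing factor ESRP1 maintains epithelial transcript forms. FOXJ1 is the master regulator of motile cilia, and oviductin (OVGP1) is the major glycoprotein of the secretory cells. In mesenchymal cells, several of these genes are known targets of the repressors ZEB and SNAI, which bind E-boxes of the form CACCTG.

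RefSeq promoter sequences (GRCm38.p6, 250 bases before to 50 bases after the start) were at hand for 6 of the 10 genes: Epcam, Krt8, Krt18, Cldn3, Cldn4 and Ovgp1. Cdh1, Krt19, Esrp1 and Foxj1 had none in that table. The 4 sequences printed here are those of the adhesion gene Epcam, of the claudin with a listed promoter region, of the claudin with promoter entries in WT libraries only, and of the secretory gene Ovgp1. Capitals mark matches on either strand to the E-box CACCTG or to the AP-1 motif TGANTCA.
Epcam promoter, chr17:87635729-87636028, plus strand: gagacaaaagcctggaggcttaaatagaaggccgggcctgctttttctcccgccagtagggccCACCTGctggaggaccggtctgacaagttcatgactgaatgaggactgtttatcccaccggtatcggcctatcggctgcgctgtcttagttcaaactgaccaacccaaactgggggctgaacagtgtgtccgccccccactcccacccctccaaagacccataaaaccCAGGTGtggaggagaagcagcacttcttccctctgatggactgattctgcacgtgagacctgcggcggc
Cldn3 promoter, chr5:134985964-134986263, plus strand: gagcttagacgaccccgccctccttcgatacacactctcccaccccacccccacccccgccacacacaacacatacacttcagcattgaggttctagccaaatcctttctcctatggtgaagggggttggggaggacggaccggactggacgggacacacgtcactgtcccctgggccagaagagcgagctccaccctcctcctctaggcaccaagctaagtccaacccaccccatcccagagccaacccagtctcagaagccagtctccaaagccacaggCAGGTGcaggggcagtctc
Cldn4 promoter, chr5:134946885-134947184, minus strand: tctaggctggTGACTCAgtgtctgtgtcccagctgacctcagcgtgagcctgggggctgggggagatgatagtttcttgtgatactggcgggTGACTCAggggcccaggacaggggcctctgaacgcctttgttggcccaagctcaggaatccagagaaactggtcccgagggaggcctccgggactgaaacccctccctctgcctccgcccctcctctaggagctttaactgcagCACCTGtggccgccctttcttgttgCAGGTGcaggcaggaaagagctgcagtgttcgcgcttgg
Ovgp1 promoter, chr3:105973552-105973851, plus strand: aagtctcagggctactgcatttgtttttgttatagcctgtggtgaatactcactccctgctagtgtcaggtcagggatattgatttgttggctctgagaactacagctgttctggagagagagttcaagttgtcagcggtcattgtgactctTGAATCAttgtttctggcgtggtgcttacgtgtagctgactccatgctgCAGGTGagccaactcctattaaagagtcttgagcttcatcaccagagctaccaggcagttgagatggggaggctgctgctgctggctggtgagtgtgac

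All 6 available promoters held the E-box CACCTG, which 20.2% of the 32851 RefSeq promoters of the same length held. Epcam and Cldn4 had 2 copies each, and Krt8, Krt18, Cldn3 and Ovgp1 had 1 each. The AP-1 motif was in 2 of the 6 promoters, with 2 copies at Cldn4 and 1 at Ovgp1, and in 7.81% of all promoters. The Grainyhead-like motif AACNNGTT (4.20% of all promoters), the CArG box of serum response factor (1.63%) and the RFX motif GTTGCC (12.5%) were in none of the 6. These matches describe letters in a window and do not show that a factor was bound. No matches of different motifs overlapped in the 6 promoters.

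Ovgp1 had 3 CpG dinucleotides in 300 bases, Krt8 had 6, Cldn3 and Cldn4 had 9 each, Epcam had 11 and Krt18 had 17. Their median was 9 CpG, against 7 over all RefSeq promoters. The median was 20 CpG at RefSeq promoters of coding genes with a listed region within 1 kb of a start and 3 CpG at those without. For classes of CpG count, a gene with several RefSeq promoters was placed by that with the most CpG. Its region could lie at any start of the gene. A promoter region was present at 15.3% of 4750 coding genes with 0 to 5 CpG and at 53.4% of 1851 genes with 6 to 10. It was present at 87.7% of 3564 genes with 11 to 20. Epcam and Krt18 lacked a promoter region in the class of 11 to 20 CpG, where 87.7% of genes had one. Among Krt8, Cldn3 and Cldn4 in the class below, only Cldn3 had one. Foxj1 and Krt19, which also had a promoter region, are missing from this comparison for want of a RefSeq sequence.

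**Figure D1:**
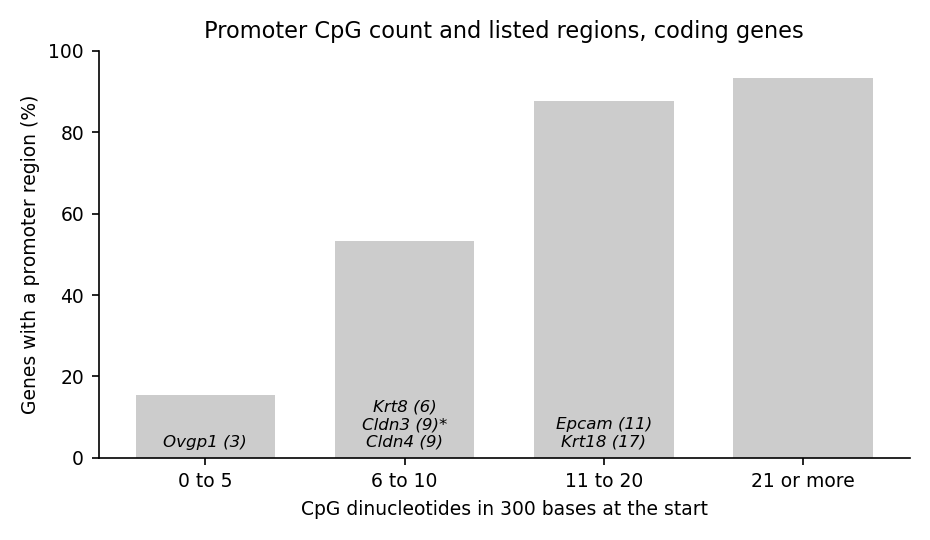
Percent of coding genes with a listed accessible region within 1 kb of a start (vertical axis). The horizontal axis gives the number of CpG dinucleotides in the 300 bases at the RefSeq start. For genes with several RefSeq promoters it is the highest count, and the region could lie at any start of the gene. Each name gives an epithelial gene with its CpG count, and the asterisk marks the only one shown with a promoter region, Cldn3. Foxj1 and Krt19, which also had a promoter region, had no RefSeq sequence and are not shown. The bars rise from 15.3% to 93.3%, and Epcam and Krt18 stand in a class in which 87.7% of genes had a region.

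Accessibility within 1 kb of the epithelial starts was low with the exception of Foxj1 and, to a lesser degree, Krt19. The Krt19 summits lay 801 to 946 bases downstream of a start, inside the gene. A promoter region, that is a reproducible peak within 1 kb of an own transcription start, was present at 3 of the 10 genes (Foxj1, Krt19 and Cldn3), or 30%, against 63.3% of the 21728 coding genes. For every library there was also a relaxed list of about 300000 weak and strong entries, and the strength of an entry was read as the number of sequence tags over its summit. The best promoter entry of the other 8 genes held between 6 and 27 tags, while the median over all entries of a library was 8 to 15 tags. WT library 3 was the weakest library, with the median of 8 tags. Tags were not adjusted for the depth of a library, so tags of different libraries are not on the same scale.

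The promoter of Foxj1 (chr11:116330704-116335399, minus strand), the regulator of motile cilia, was the strongest of the 10 in every library. Its summit held 77, 76 and 52 tags in WT libraries 1 to 3 and 75, 92 and 96 tags in the Pbrm1 cKO libraries 1 to 3. The fold enrichment over local background was 16.8, 18.2 and 14.8 in WT and 18.1, 22.5 and 22.3 in the Pbrm1 cKO libraries. The summit lay 63 to 76 bases upstream of the start in all 6 libraries. Of all coding promoters, 24.6%, 17.6% and 20.5% ranked above that of Foxj1 in WT and 29.4%, 13.6% and 13.8% in the Pbrm1 cKO libraries. The region (chr11:116335153-116336105) ranked 5585, 3812 and 4230 of 66679 in WT and 7249, 2715 and 2744 in the Pbrm1 cKO libraries, so the groups overlapped. A rank score, log2(66679 / rank), was compared between genotypes with limma over all regions, and a higher score means a stronger region. The Foxj1 score was 3.89 ± 0.28 in WT and 4.14 ± 0.81 in the Pbrm1 cKO libraries (n = 3 each, SD), a difference of 0.25 (SE 0.46, limma adjusted p = 0.847).

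Krt19, which encodes a simple keratin, had a region inside the gene (chr11:100147625-100147965), with its summit 890 bases downstream of a start. The summit held 47, 39 and 17 tags in WT and 28, 35 and 19 tags in the Pbrm1 cKO libraries. It ranked 14818.5, 18525 and 28647.5 in WT libraries and 34215.5, 18186 and 45718 in the Pbrm1 cKO libraries. Pbrm1 cKO library 2 ranked between WT libraries 1 and 2, and the groups overlapped. The score was 1.75 ± 0.48 in WT and 1.13 ± 0.68 in the Pbrm1 cKO libraries (n = 3 each, SD), a difference of −0.62 (SE 0.38, limma adjusted p = 0.448).

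Cldn3, a tight junction claudin, had a weak region over its start (chr5:134985671-134986312) that was in the WT list of reproducible peaks and not in the Pbrm1 cKO list. The summit held 21, 16 and 9 tags in WT and 15, 12 and 13 tags in the Pbrm1 cKO libraries, and these tags overlapped between groups. The ranks were 50174, 58045.5 and 58518 in WT and 61119, 61798 and 61863 in the Pbrm1 cKO libraries, which did not overlap. Over all regions, the ranks separated with the Pbrm1 cKO libraries lower at 10.9% and with them higher at 10.6%. The score difference was −0.15 (SE 0.11, limma adjusted p = 0.555). All 3 Pbrm1 cKO libraries had a relaxed entry there in spite of the absence from the Pbrm1 cKO list.

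Cldn4, the neighbouring claudin gene on chromosome 5 (chr5:134945119-134946934, minus strand), had no promoter region. Its promoter had a weak entry in each WT library, of 12, 11 and 7 tags, and none in any Pbrm1 cKO library. This pattern was found at 0.249% of the 21728 coding promoters, and the reverse pattern, entries in every Pbrm1 cKO and no WT library, at 0.143%. The WT entries had −log10 p values of 4.85, 4.70 and 3.64. The weakest listed value was 2.22 to 3.00 in WT libraries and 2.00 to 3.25 in the Pbrm1 cKO libraries, so a missing entry means a value below that limit and does not show closed chromatin. The pattern was singled out after its values were seen and is given as a description only.

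The adhesion genes Epcam (chr17:87635979-87651129) and Cdh1 (chr8:106603351-106670246), the keratin genes Krt8 (chr15:101996698-102004482) and Krt18 (chr15:102028180-102032027), and Esrp1 (chr4:11331933-11386783) each had a weak promoter entry in all 6 libraries. At Epcam, the most widely used surface marker of epithelial cells, the summit held 11, 8 and 8 tags in WT and 12, 13 and 10 tags in the Pbrm1 cKO libraries. At Cdh1, which encodes E-cadherin, it held 19, 10 and 8 tags in WT and 11, 10 and 12 tags in the Pbrm1 cKO libraries. The tags of both genes overlapped between groups. By rank, 66.4%, 67.4% and 65.7% of coding promoters lay above that of Epcam in WT and 63.5%, 62.1% and 65.4% in the Pbrm1 cKO libraries, without overlap. Such a separation, with the Pbrm1 cKO libraries higher, was found at 5.80% of the 14696 coding promoters with an entry in all 6 libraries, and with them lower at 7.22%.

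Krt8 held 27, 15 and 12 tags in WT and 11, 13 and 13 tags in the Pbrm1 cKO libraries, Krt18 8 to 12 tags and Esrp1 6 to 14 tags. The Krt8 summits lay −949, −1021 and 66 bases from the start in WT and −77, 177 and −1002 bases in the Pbrm1 cKO libraries. The Krt8 values thus compare different sites between libraries. The Krt8 ranks did not overlap, with 59.0%, 64.1% and 64.2% of coding promoters above it in WT and 68.4%, 66.2% and 65.9% in the Pbrm1 cKO libraries. Such a separation was found at 7.22% of the coding promoters with an entry in all 6 libraries. For Ovgp1 (chr3:105973711-105987423), the marker of secretory cells, entries of 8, 6 and 8 tags were listed in WT libraries and of 7 and 9 tags in the Pbrm1 cKO libraries 2 and 3, with none in Pbrm1 cKO library 1. Over the 10 genes, the median place of the promoter among all 66679 regions was 80.2%, 94.2% and 78.3% from the top in WT and 95.1%, 92.7% and 92.9% in the Pbrm1 cKO libraries, where 100% is the weakest. A promoter without an entry in a library was placed at 100% there. WT library 2 lay among the Pbrm1 cKO libraries. In terms of all coding promoters, the median share that ranked higher was 62.8%, 66.4% and 65.4% in WT and 64.9%, 64.2% and 65.9% in the Pbrm1 cKO libraries, and between 71.7% and 73.9% of coding promoters had an entry at all.

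Across promoters, rank scores among coding promoters were compared for the 14696 with an entry in all 6 libraries, of which 0.0749% passed an adjusted p of 0.05 in limma. Of the 10 epithelial genes 8 could be tested, all but Cldn4 and Ovgp1, and 0 passed. At an unadjusted p under 0.05 there were 0 of the 8, against 7.89% of all promoters tested. Krt8 came closest, with a difference of −0.10 (SE 0.049, limma adjusted p = 0.646), and Foxj1 had the largest difference, 0.23 (SE 0.38, limma adjusted p = 0.938). The Krt8 entries compared did not lie at the same site in all libraries.

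**Figure D2:**
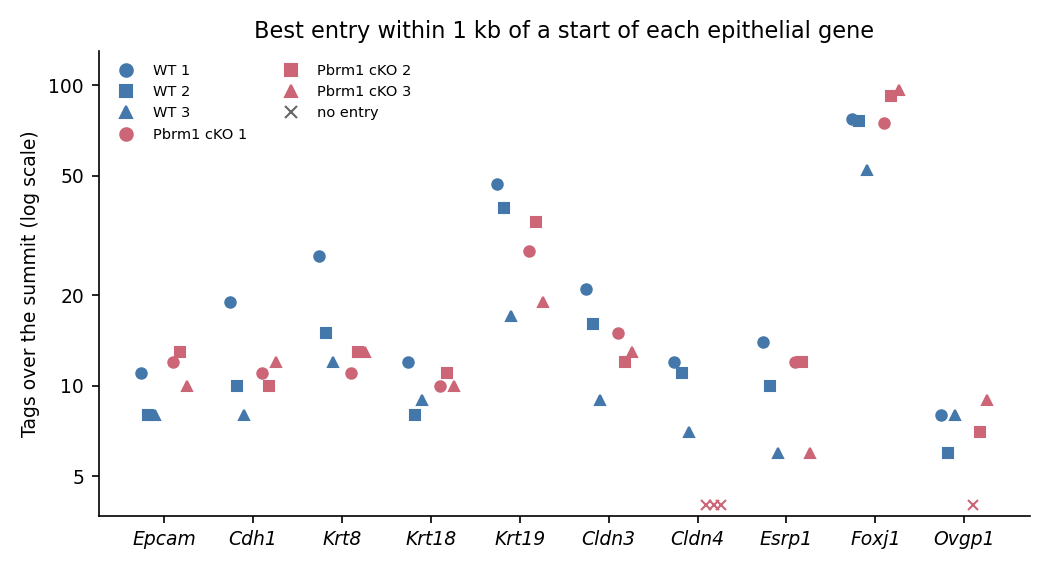
Tags over the summit of the best entry within 1 kb of a start (vertical axis, log scale) for each of the 10 genes (horizontal axis), 1 point per library, with crosses where a library had no entry. Foxj1 lies between 52 and 96 tags and Krt19 between 17 and 47, while the other genes lie at 27 tags or fewer, and Cldn4 has no entry in the Pbrm1 cKO libraries.

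To place these promoters, lists of genes of other cell types were ranked in the same way. The lists too were chosen with earlier results of these data known. A promoter without an entry in a library again counted as 100% there, in the places of genes and in the medians. Actg2, for example, had an entry in 3 libraries and Rgs5 in 2. Of 10 smooth muscle genes 8 had a promoter region, with Smtn the strongest at 15.2% from the top and Actg2 the weakest at 97.7%. The median place of the muscle promoters was 46.4% ± 2.46 in WT and 62.6% ± 6.72 in the Pbrm1 cKO libraries (n = 3 each, SD), against 84.2% ± 8.70 and 93.6% ± 1.30 for the 10 epithelial genes. Myocd and Actg2 were the muscle genes without a promoter region. Of 8 fibroblast genes 6 had a promoter region, with Vim at 10.2% and Lum at 85.5%. The corresponding counts were 4 of 5 pericyte genes (Pdgfrb 38.1%, Rgs5 99.1%), 5 of 7 endothelial genes (Kdr 31.5%, Tie1 97.4%), 2 of 4 mesothelial genes (Wt1 12.6%, Upk3b 93.2%) and 2 of 8 immune genes (Cd68 33.9%, Cd3e with no entry).

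Of 20 further pan-epithelial genes 8 had a promoter region, with Tjp3 at 0.840% and Rab25 with no entry in any library. Their median place was 77.8% ± 13.5 in WT and 92.3% ± 3.16 in the Pbrm1 cKO libraries. Of 7 secretory and Müllerian genes 3 had one, with Muc1 at 18.6% and Lcn2 at 96.4%. Of 13 ciliated cell genes 8 had one, with Ccno at 2.56% and Dnah5 with no entry, while Foxj1 lay at 6.58%. The median place of the ciliated cell promoters was 36.6% ± 1.51 in WT and 57.3% ± 10.7 in the Pbrm1 cKO libraries. A list median can move with the gene in the middle of the list. The median rank score difference by gene was 0.0069 for the 11 ciliated cell genes tested. It was −0.027 for the 9 smooth muscle genes tested and 0.017 for the 8 epithelial genes tested. Of 11 genes of tissues outside the oviduct 1 had a promoter region, and 7 of the 11, such as Alb, had no entry in any library. All 7 housekeeping genes had one. Differences between the lists, and the part of other cell types in the values of the 10 genes, were not tested. In each of these lists 0 genes passed an adjusted p of 0.05 in the limma comparison of promoters. Between 0 and 3 genes of a list had an unadjusted p under 0.05, against 7.89% of all promoters tested. The 3 were in the list of other pan-epithelial genes, of which 15 could be tested. They were Esrp2, St14 and Marveld3, named here after their values were seen, with differences of −0.17, −0.14 and −0.14. The median difference over the 15 was −0.046. Over all coding promoters the median place was 33.2% in WT and 34.2% in the Pbrm1 cKO libraries.

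**Figure D3:**
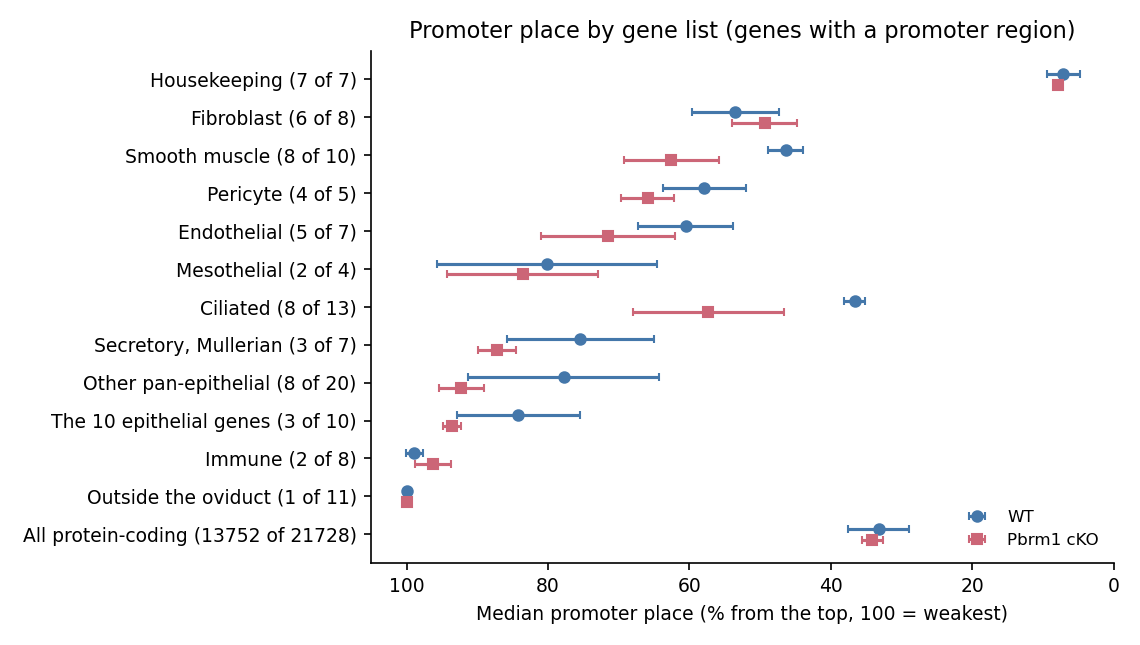
Median place of the promoters of each gene list among all 66679 regions (horizontal axis, percent from the top, with 100 the weakest), as the mean ± SD of 3 libraries per genotype, with the number of genes that had a promoter region in parentheses. The 10 epithelial genes lie at 84.2% in WT and 93.6% in the Pbrm1 cKO libraries, near the other pan-epithelial genes, while smooth muscle genes lie at 46.4% and 62.6%. By gene, the median rank score difference was 0.017 for the epithelial genes tested and −0.027 for the smooth muscle genes tested.

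Beyond promoters, 8 of the 10 windows held at least 1 region, and those of Epcam and Ovgp1 held none. Windows without a region made up 21.6% of the 21755 windows of coding genes. The 14 regions amounted to 0.370 per 10 kb of window, against 0.447 over all coding genes. Leaving out regions at the promoter of another gene, 11 regions in 7 windows remained, or 0.291 per 10 kb, against 0.370 over all coding genes on the same basis. The value was 0.341 for the other pan-epithelial genes, 0.307 for the ciliated cell genes, 0.329 for the secretory and Müllerian genes, 0.311 for the immune genes and 0.388 for the endothelial genes. It was 0.618 for the smooth muscle genes, 0.950 for the fibroblast genes and 0.743 for the pericyte genes. The value was 1.37 for the mesothelial genes, 0.768 for the housekeeping genes and 0.188 for the genes of other tissues. Of the 21 regions of the mesothelial genes, 13 were in the window of Wt1. Of the 14 regions in the epithelial gene windows, 8 were in both lists of reproducible peaks, 3 in the WT list alone and 3 in the Pbrm1 cKO list alone. Shared regions were thus 57.1% of the 14, and 69.2% of all merged regions were shared. Regions are numbered within a window from the lowest coordinate.

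The regions of the Esrp1 window lay beyond the 3′ end of the gene. The strongest region there (chr4:11321681-11322778) lies at the shared promoter of Dpy19l4 and Gm26663, 21978 bases from the nearest Esrp1 start. It held 47 to 77 tags and ranked between 6115.5 and 10355.5 in all libraries. No region lay within the Esrp1 gene body or at its own starts. Both regions counted for Esrp1 were at promoters of neighbouring genes.

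Cdh1 had 3 regions, all in introns, 15726, 43400 and 51982 bases downstream of its nearest start. Region 3 (chr8:106655884-106656380) held 24, 24 and 9 tags in WT and 36, 28 and 43 tags in the Pbrm1 cKO libraries. It ranked 29356.5, 25891 and 47515 in WT and 19677.5, 23286.5 and 12680 in the Pbrm1 cKO libraries, so every Pbrm1 cKO library ranked higher than every WT library. Such a separation was found at 10.6% of all regions. The difference in score was 0.88 (SE 0.35, limma adjusted p = 0.234). The Cdh1 window also held more entries of any strength in the Pbrm1 cKO libraries, 16, 17 and 22 against 13, 11 and 11 in WT libraries. The number of entries did not overlap between groups, with the Pbrm1 cKO libraries higher, in 5.59% of all coding windows, and with them lower in 3.40%. Of the 10 genes Cdh1 was the only one whose entry numbers did not overlap. Over all 10 windows, 90, 80 and 69 entries were listed in WT and 77, 72 and 86 in the Pbrm1 cKO libraries.

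Cldn4 had 2 intergenic regions. Region 1 (chr5:134942658-134943145), 3899 bases downstream of the Cldn4 start with its edge 2196 bases from a start of Mettl27, held 32, 31 and 12 tags in WT and 49, 38 and 40 tags in the Pbrm1 cKO libraries. It ranked 24632, 22051 and 40317 in WT and 13460, 17330 and 15786 in the Pbrm1 cKO libraries, without overlap. A separation in this direction was found at 10.6% of all regions. Region 1 differed in score by 0.86 (SE 0.34, limma adjusted p = 0.225). Its summit sequence is shown because it was the only one of the 14 with matches to 2 of the motifs, a CArG box starting 75 bases and an AP-1 motif starting 36 bases before the summit, both in capitals.
Cldn4 region 1 summit, chr5:134942885-134943184, plus strand: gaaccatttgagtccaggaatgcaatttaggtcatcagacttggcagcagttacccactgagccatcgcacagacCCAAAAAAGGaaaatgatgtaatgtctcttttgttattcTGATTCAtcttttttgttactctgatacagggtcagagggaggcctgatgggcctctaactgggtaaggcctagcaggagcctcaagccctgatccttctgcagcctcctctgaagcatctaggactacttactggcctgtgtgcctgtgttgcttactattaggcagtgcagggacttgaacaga

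Region 2 of Cldn4 (chr5:134951105-134952007), on the other side of the gene, held 11 to 24 tags and differed by 0.14 (SE 0.25, limma adjusted p = 0.838). Both regions of the Cldn3 window ranked lower in every Pbrm1 cKO library than in every WT library. A separation in this direction was found at 10.9% of all regions. Region 2 of Cldn3 (chr5:134989708-134990261), which overlaps an exon of Wbscr25, held 25, 20 and 17 tags in WT and 19, 8 and 18 tags in the Pbrm1 cKO libraries. It ranked 41284.5, 47296 and 30860 in WT and 52158.5, 65590 and 50933 in the Pbrm1 cKO libraries, with a difference of −0.51 (SE 0.21, limma adjusted p = 0.252). It was in the WT list alone.

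The windows of Krt8 and Krt18 on chromosome 15 held 3 regions. Region 2 of Krt8 (chr15:102002888-102003452), inside the gene and within 1 kb of the start of Gm36026, held 13 to 29 tags. Region 1 (chr15:101988206-101988417) held 17 and 31 tags in WT libraries 1 and 2, had no entry in WT library 3, and held 36, 23 and 46 tags in the Pbrm1 cKO libraries. Both were in the Pbrm1 cKO list alone, and their differences were 0.10 (SE 0.23, limma adjusted p = 0.875) and 0.61 (SE 0.32, limma adjusted p = 0.371). The Krt18 region (chr15:102025573-102026117), upstream of the gene, was in the WT list alone and differed by −0.19 (SE 0.15, limma adjusted p = 0.574). In all 3 the groups overlapped.

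Over the 14 regions, 0 passed an adjusted p of 0.05 in limma, against 0.0675% of all 66679 regions. An unadjusted p under 0.05 was found at 4 of the 14 (28.6%), Cldn4 region 1, Cdh1 region 3, Cldn3 region 2 and Esrp1 region 2, against 15.9% of all regions. Esrp1 region 2 (chr4:11322870-11323052) has its edge 733 bases from a start of Dpy19l4. It held 18, 16 and 9 tags in WT and 30, 22 and 24 tags in the Pbrm1 cKO libraries, without overlap, and differed by 0.31 (SE 0.13, limma adjusted p = 0.257). Every Pbrm1 cKO library ranked higher than every WT library at 3 of the 14 regions, and lower at 2, against 10.6% and 10.9% of all regions. The median score difference over the 14 was 0.12, with 8 higher, against 0.00055 over all regions. Over the 7 regions whose nearest start was that of an epithelial gene the median was −0.15, with 2 higher, and without Pbrm1 cKO library 2 the median over the 14 was 0.021. These counts describe the windows and carry no test of their own.

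**Figure D4:**
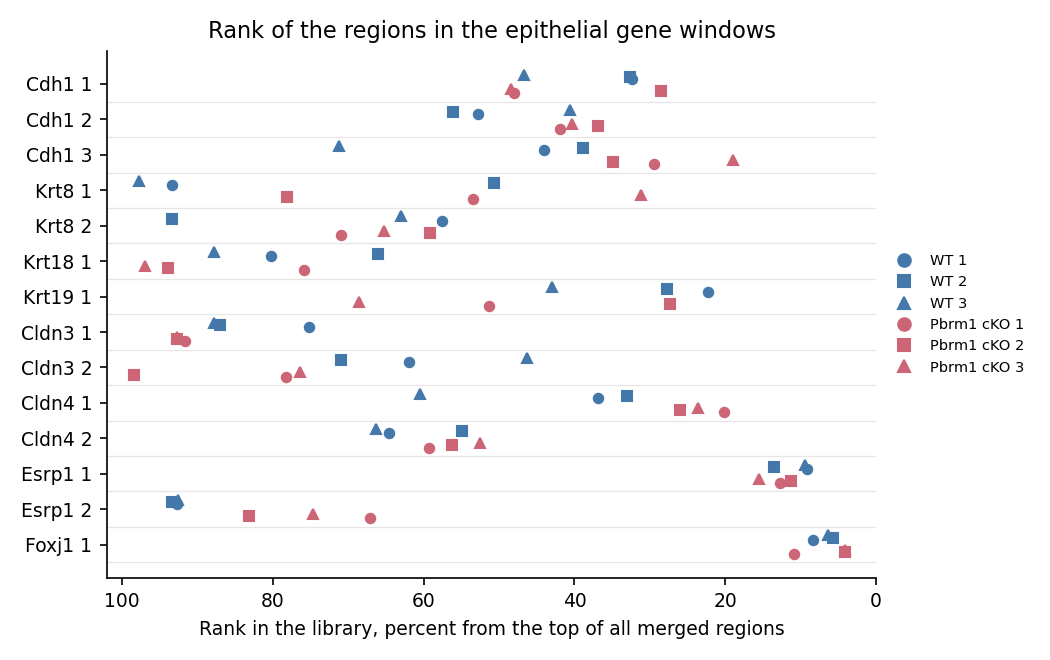
Rank of each of the 14 regions in each library (horizontal axis, percent from the top of the 66679 merged regions, with the strongest at the right), by gene and region number (vertical axis), with WT libraries in blue and Pbrm1 cKO libraries in red. Foxj1 and region 1 of Esrp1, a promoter of neighbouring genes, stay within the strongest 15.5% in all libraries, and the groups separate at Cdh1 3, Cldn3 1, Cldn3 2, Cldn4 1 and Esrp1 2.

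**Figure D5:**
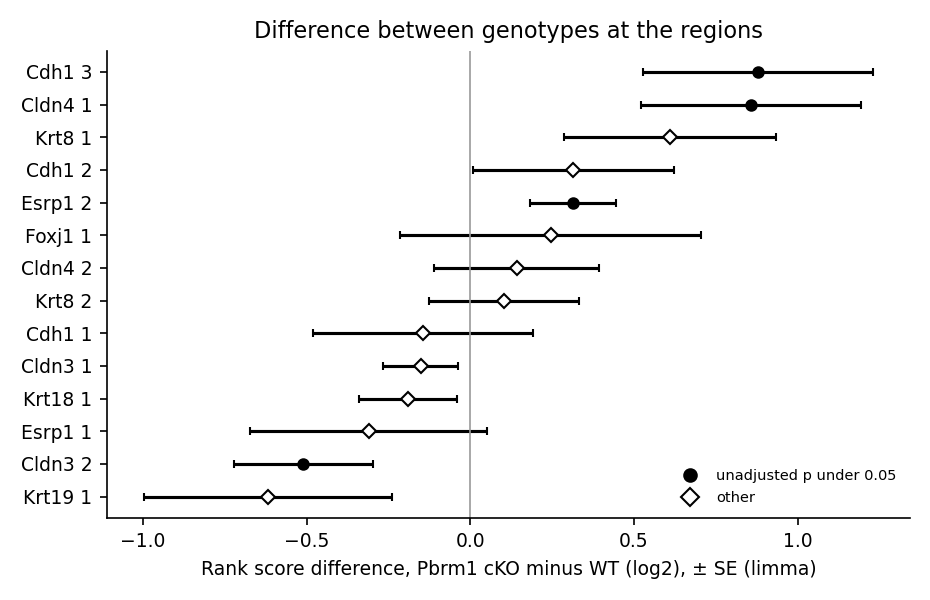
Difference in rank score between genotypes (horizontal axis, log2, Pbrm1 cKO minus WT, with the standard error from limma) for the 14 regions (vertical axis), sorted by size; filled circles mark an unadjusted p under 0.05. The values run from −0.62 at Krt19 to 0.88 at Cdh1 region 3, and 0 of the 14 passed the adjusted threshold.

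The same motifs were counted in the 300 bases around the 14 summits. The AP-1 motif TGANTCA was in 6 of the 14 (42.9%) and in 36.6% of all regions, and the E-box CACCTG in 2 (14.3%) and 14.4%. The CArG box was in 1 region, that beside Cldn4, and in 1.70% of all regions. The RFX motif GTTGCC was in 2, at Foxj1 and at Krt8 region 1, and in 11.6%. The Grainyhead-like motif was in none of the 14 and in 3.88% of all regions. The 2 regions with an E-box were the promoter of Cldn3 and intronic region 2 of Cdh1. The windows held a median of 6 CpG against 5 over all regions, from 0 at Krt19 and Cdh1 region 3 to 29 at Foxj1, where 92.3% of regions held fewer.

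In the whole series, the promoter of Pbrm1 lay between 15.8% and 33.3% from the top in all libraries. An accessible promoter does not measure whether the floxed part of the gene was deleted, so it does not check the genotype. All lists held 300000 entries but that of Pbrm1 cKO library 3, with 298563, and the total number of reads per library is unknown. The libraries are labelled as separate samples, and p-values measure the spread between them.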

How the data were processed

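Per the labels and the study's methods, reads were trimmed with cutadapt, aligned with Bowtie2 to GRCm38 and passed to MACS2 by the authors. The authors deposited a relaxed peak list per library (p under 0.01, at most 300000 entries) and 1 list per genotype of peaks reproducible at an irreproducible discovery rate of 0.05. The deposited columns used were the fold enrichment, a ratio to local background, and the −log10 p-value. The deposited −log10 q-value and the integer score were used for filters only. No read counts were used, so a count test such as that of the study could not be run.

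The WT and Pbrm1 cKO lists were merged (overlap of 1 base). Each region was ranked per library by its best −log10 p, with regions without an entry sharing the lowest rank. The score log2(regions / rank) was compared with limma 3.58.1 (R 4.3.3, variance trend, Benjamini-Hochberg adjustment over all regions). The same was done for coding promoters with an entry in all 6 libraries, a choice made after seeing the data. Summit tags were solved from the fold and p (whole within 0.05 for 100% of entries), and the solver was tested on simulated data. Gene models were GENCODE for GRCm38 and promoter sequences RefSeq. The text names all 10 genes, their promoter regions, other regions with an unadjusted p under 0.05, the best region of each window, neighbouring promoters, and the best and lowest gene of each list, except some that are not reported here; the other regions of the windows were added after their values were seen. The genes and lists were chosen with earlier results of these data known. Depth in reads is unknown, which limits the precision of each rank. Alternatives were other scores, ranking by fold, other windows, a replicate block and leaving out each library. Python used numpy 2.4.6, pandas 2.3.3 and scipy 1.17.1.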

Additional observations from a re-analysis of the deposited data

How the results depend on the processing

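Under each of the 13 alternatives 0 of the regions tested passed the limma threshold, with 7 to 14 of the 14 regions tested. Over all 66679 regions, 45 passed, against 1552 with normal scores, 4 when ranked by fold, 131 with the replicate block and 2 to 20 with 1 library left out, and the cause was not tested. Same-numbered libraries did not deviate together (correlations of −0.0029, −0.055 and 0.0091). These correlations cannot show whether same-numbered samples were prepared together. The labels name no pairing, so the replicate block rests on the library numbers alone. With the replicate block the median difference over the 14 was again 0.12. It was 0.25 over the regions ranked above the median score and −0.15 over regions whose nearest start is that of an epithelial gene, and 0.021 to 0.17 with 1 library left out. Leaving out 1 library gave 0.62 to 1.07 at Cdh1 region 3, 0.59 to 1.03 at Cldn4 region 1, −0.65 to −0.34 at Cldn3 region 2, 0.0072 to 0.72 at Foxj1 and −0.99 to −0.33 at Krt19.

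The median promoter place in Pbrm1 cKO libraries, 93.6%, was 90.2% when ranked by fold, 92.2% within 3 kb of a start, 95.8% among promoter regions only and 92.8% to 94.0% with 1 library left out. In WT libraries it was 79.2% to 87.2% with 1 left out. Without flanks, the gene bodies held 6 WT, 6 Pbrm1 cKO and 5 shared regions, and a mean of 37.0 WT and 39.3 Pbrm1 cKO entries in place of 79.7 and 78.3. With promoters lacking an entry kept at the shared lowest rank, an alternative chosen after seeing the data, limma called 80 coding promoters in place of 11. Cldn4 was among the 80 by construction, since its Pbrm1 cKO libraries share the lowest rank, so that call restates the missing entries. Read depth is unknown, and a missing entry gives only an upper limit.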
